A study of Mus musculus with 12 samples.

Results

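The lysosomal hydrolases and membrane proteins are 39 genes chosen by symbol, each matched exactly to 1 row of the deposited count table, which holds 54532 genes. They comprised 10 proteases, 11 glycosidases, 5 sulfatases, 6 lipid hydrolases and activators, 2 proteins of cholesterol export, 3 membrane proteins and 2 transcription factors of lysosomal genes. RNA-seq was done on 12 libraries of SSChigh4get+ eosinophils sorted from the spleens of IL-5tg_4get/C57BL/6 mice, 3 libraries in each of 4 groups. The IL-5 transgene drives an excess of eosinophils, and 4get is a fluorescent reporter of Il4, so all cells came from animals with these 2 alterations. All cells were cultured for 4 h. The isotype group received rat IgG2a. The antibody group received 5 µg/mL of anti-Siglec-F, which binds an inhibitory-type receptor of mouse eosinophils. The IL-33 group received 10 ng/mL of IL-33, an alarmin cytokine, and the combined group received IL-33 together with the antibody. Whether wells with IL-33 alone also held the isotype antibody is not stated in the sources used here. Neither is whether the 3 libraries of a group are separate animals or cultures, so p-values here reflect library-to-library spread alone, and that spread may be technical.

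Lysosomes are acidic compartments in which hydrolases take apart proteins, glycans, sulfated polysaccharides and lipids, behind a membrane coated by heavily glycosylated proteins. Most of the hydrolases are made in the endoplasmic reticulum, tagged with mannose 6-phosphate in the Golgi and carried onwards by mannose 6-phosphate receptors. The transcription factors TFEB and TFE3 bind a short element, named CLEAR, built around the E-box core CACGTG near the starts of many lysosomal genes. In eosinophils the secretory granules are related to lysosomes, and cathepsins and lysosomal membrane proteins also take part in making and releasing them.

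The libraries held 11686603 to 17137988 counts, and 14547 genes passed the filter on low counts, all 39 lysosomal genes among them. Combined libraries 2 and 3 stood apart from the other libraries. They held 15555 and 29990 genes with at least 1 count, against 19138 to 24485 elsewhere, and 3.38% and 3.92% of their counts fell on ribosomal protein genes, where the other libraries had 1.65% to 2.65%. The median SD of log2 values between libraries was 0.15 in the isotype group and 0.33 in the combined group, and for the lysosomal genes 0.15 and 0.31. One estimate of spread per gene was shared by all groups, so p-values for the combined group may be too small. Il6, a cytokine gene used to check the treatment, averaged 2.30 CPM (a gene's counts relative to the TMM-scaled library total) with isotype, 2.78 with the antibody, 209 with IL-33 and 418 with both stimuli. The 10 eosinophil markers all passed the filter. They summed to 5897 to 10878 CPM with isotype, 6145 to 10805.5 with the antibody, 4586 to 7928 with IL-33 and 5675 to 14010.2 with both stimuli. Against isotype, 6 of the 10 had positive log2 fold changes with both stimuli (median 0.14) and 0 with IL-33 (median -0.42, from -0.73 to -0.24). None of the 10 was called in any comparison. Genes for granule proteins among them differed widely between libraries of the same group. Epx was at 637, 277 and 123 CPM in isotype libraries 1, 2 and 3, and at 665, 254 and 118 with the antibody. It was at 498, 176 and 192 CPM with IL-33 and at 413, 139 and 532 with both stimuli. Prg2 was at 1772, 896 and 5372 CPM in the combined libraries. The receptor gene Ccr3 varied less, at 1633, 1715 and 1858 CPM in the isotype libraries. Markers of other cells were also present, and in bulk RNA fewer cells of a type and less RNA per cell cannot be told apart. The monocyte and macrophage list (14 genes, 11 past the filter, none at 0 in all libraries) summed to 741 to 856 CPM with isotype, 839 to 1059 with the antibody, 1143 to 1460.1 with IL-33 and 1355 to 1736 with both stimuli. Csf1r was the largest part of that sum and was its only gene to pass the test, at a log2 fold change of 0.96 with IL-33 and 1.24 with both stimuli against isotype (edgeR adjusted p = 0.00603 and 0.000551). Without Csf1r the ranges were 334 to 432, 320.0 to 395, 353 to 515 and 411 to 684 CPM. The markers C1qa, C1qb, C1qc, Cd5l, Mertk, Timd4 and Marco together summed to 5.46 to 7.37, 4.18 to 9.94, 1.19 to 5.29 and 4.12 to 9.28 CPM, and Marco, Mertk and Timd4 stayed below 1 CPM in every library. Vcam1 of the same list was at 10.8 to 39.03, 9.14 to 40.8, 35.9 to 122 and 42.1 to 132 CPM, without a call by edgeR. Of the other lists, those of neutrophils, erythroid cells, B and plasma cells, and T cells with ILC2 had 0 called genes in every comparison. Their levels varied between libraries all the same. Over all 12 libraries neutrophil markers summed to 478 to 2230 CPM, and B and plasma cell markers to 562 to 1129. Those of erythroid cells summed to 5.88 to 30.2 CPM. The T cell and ILC2 list summed to 36.8 to 65.2 CPM with isotype and 30.4 to 131 with IL-33. Batf3 of the dendritic cell list rose by 1.36 with IL-33 and 2.43 with both stimuli against isotype and by 1.77 with both stimuli against the antibody, and Cd200r3 of the basophil and mast cell list fell by 1.50 with IL-33, on the log2 scale. With 1 library left out, the Cd200r3 call was lost in 6 of 6 fits and the Batf3 call with IL-33 in 5 of 6 (edgeR adjusted p up to 0.218 and 0.170). The Batf3 call for both stimuli was kept in each against isotype and lost in 1 against the antibody, without antibody library 1 (adjusted p = 0.0520). The part of these markers, and of the 2 combined libraries that stood apart, in the lysosomal values below was not tested. Values given without those 2 libraries rest on 1 combined library. A call lost there cannot tell the part of those libraries from a loss of precision. Log2 fold changes without those libraries are therefore given below for related genes named there.

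The lysosomal genes spanned a wide range of levels in isotype-treated eosinophils. Measured as CPM per kb of gene length, the highest were Man2b1, the lysosomal alpha-mannosidase, at 269 ± 27.1 (SD, n = 3), and Ctsd, the aspartic protease cathepsin D, at 254 ± 16.3, and the libraries of these 2 genes overlapped. Psap, the precursor of the saposins that help lipid hydrolases, followed at 175 ± 15.4, then the aminopeptidase Ctsh at 153 ± 6.90, Ctsz at 98.4 ± 12.7 and Lamp1 at 96.6 ± 7.01. The lowest were Sgsh at 1.75 ± 0.192 and Ctsl at 0.844 ± 0.228 CPM per kb. Of the 38 neighbouring pairs in this order, 27 overlapped between libraries. From Neu1 upwards only Man2b1 with Ctsd and Ctsz with Lamp1 overlapped, while every neighbouring pair from Ctsa down to Ppt1 did. With both stimuli Ctsd was highest, at 544 ± 111 CPM per kb, and Man2b1 was at 149 ± 3.64.

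**Figure D1:**
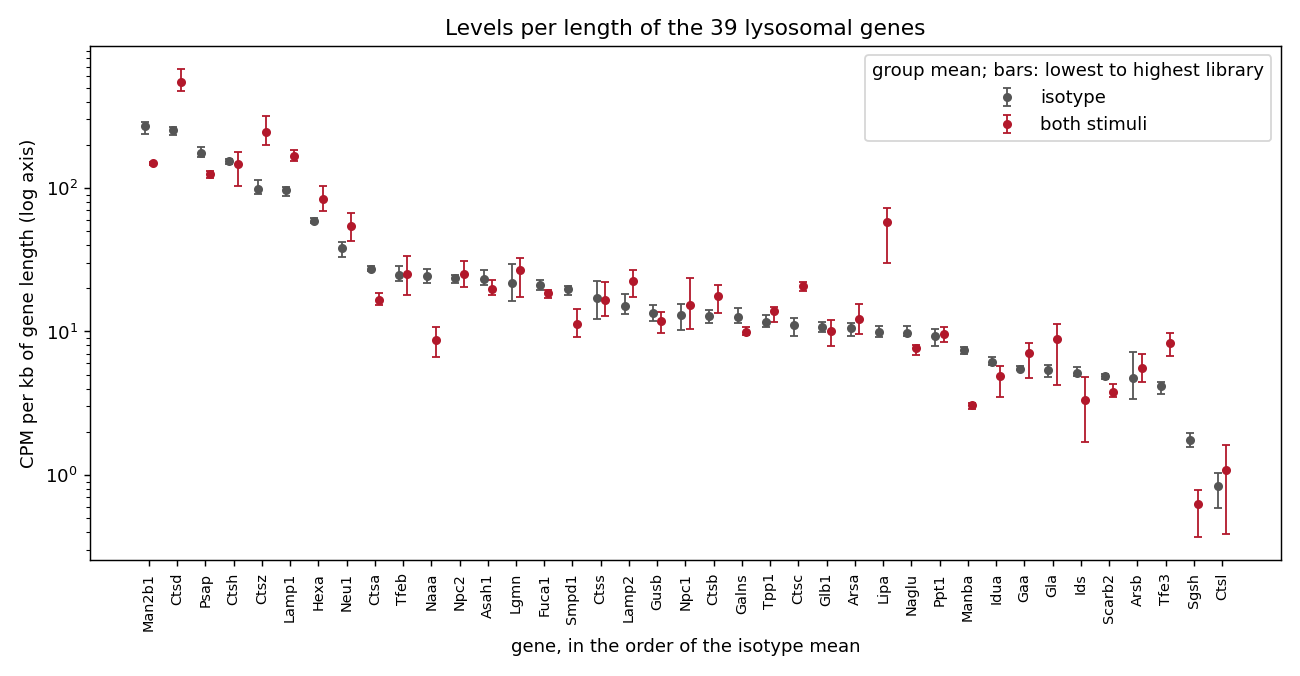
CPM per kb of gene length (log axis) of each lysosomal gene in the isotype and combined groups, with points for group means and bars from the lowest to the highest of 3 libraries. Man2b1 and Ctsd lead the isotype order at 269 and 254 CPM per kb, and Lipa shows the widest separation between the groups.

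The lysosomal genes did not move as one. With both stimuli, 6 rose against isotype (Lipa, Ctsz, Ctsd, Tfe3, Ctsc and Lamp1) and 7 fell (Naaa, Sgsh, Manba, Man2b1, Smpd1, Ctsa and Psap), as called by edgeR's quasi-likelihood test at an adjusted p under 0.05 over all genes tested. These 13 were 33.3% of the 39, against a background of 9.88% of all tested genes called, 5.47% higher and 4.41% lower. The median log2 fold change of the 39 was 0.03, and that of all tested genes -0.05. The 3 libraries of each group did not overlap for 21 of the 39, with 8 higher and 13 lower, against 27.2% of all tested genes. Without combined libraries 2 and 3 the count became 6 of 39 (5 higher, 1 lower) and the median -0.16, while all genes called went from 1437 to 651. Without isotype library 1, 8 of the 39 were called, and without isotype library 3, 7 of the 39. Counts over all tested genes also changed with 1 library left out, here, for IL-33 alone and against the antibody. Their ranges are given at the end.

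IL-33 alone moved fewer of them. Tfe3, Lipa and Ctsc rose and Ctsa fell against isotype, 4 of 39 or 10.3%, against 2.21% of all tested genes called, 1.46% higher and 0.749% lower. The median log2 fold change was -0.13 for the 39 and -0.01 for all tested genes, and 24 of the 39 had negative values. Libraries did not overlap for 17 of the 39, 5 higher and 12 lower, against 24.1% of all tested genes. In this pair of groups the libraries with the same replicate number deviated together, and with the replicate number as a block 5 were called, Manba added at -1.03 on the log2 scale (edgeR adjusted p = 0.0338). With the block and only these 2 groups in the fit it was 8, with Man2b1, Ctsz, Manba and Sgsh added at -0.63, 0.75, -1.04 and -1.10 (edgeR adjusted p = 0.0473, 0.0164, 0.0118 and 0.0248). The count ranged from 1 to 8 when 1 library was left out. It was 8 without IL-33 library 3, 1 without IL-33 library 1 or isotype library 3, and 2 without any of the other 3 libraries of these groups. Over all tested genes the 322 calls also became more in each fit with the block. They changed with 1 library left out too, as given at the end.

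The antibody alone gave no call by edgeR's quasi-likelihood test, for the 39 or for any tested gene (0%). At an unadjusted p under 0.05 it gave 4 of the 39 and 370 of all tested genes, and DESeq2 and limma voom each called 10 genes, none of them lysosomal. Libraries did not overlap for 7 of the 39, 3 higher and 4 lower, against 13.2% of all tested genes. Naaa, which breaks down N-acylethanolamines such as palmitoylethanolamide, had the lowest log2 fold change of the 39, at -0.93 (SE 0.25). With only the isotype and antibody groups in the fit, edgeR called Naaa at the same fold change (adjusted p = 0.0343), among 20 of 13554 genes, or 0.148%.

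Against the antibody alone, both stimuli raised Lipa, Ctsz, Tfe3, Lamp1 and Ctsc and lowered Sgsh and Manba. These 7 of 39 were 17.9%, against 4.42% of all tested genes called, 2.7% higher and 1.72% lower. Without combined libraries 2 and 3 it was 3 of 39, and 2, 3 and 4 without antibody library 1, antibody library 2 and combined library 3. Against IL-33 alone, both stimuli gave no call among the 39 or among all tested genes (0%), with 9 of the 39 and 2526 of all tested genes at an unadjusted p under 0.05. There DESeq2 called Ctsd, Hexa and Naaa, at log2 fold changes of 0.84, 0.61 and -0.94, with 388 genes or 3.82% called in all, and limma voom called 0. Without combined library 1, edgeR called 3 of the 39 (Ctsh, Hexa and Naaa), and 2116 genes in all. Whether the antibody's effect differed with and without IL-33, the interaction, also gave 0% called, with 4 of the 39 and 1150 of all tested genes at an unadjusted p under 0.05 and 1 gene by DESeq2. The comparisons against isotype share the isotype libraries, so their values are given side by side only.

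**Figure D2:**
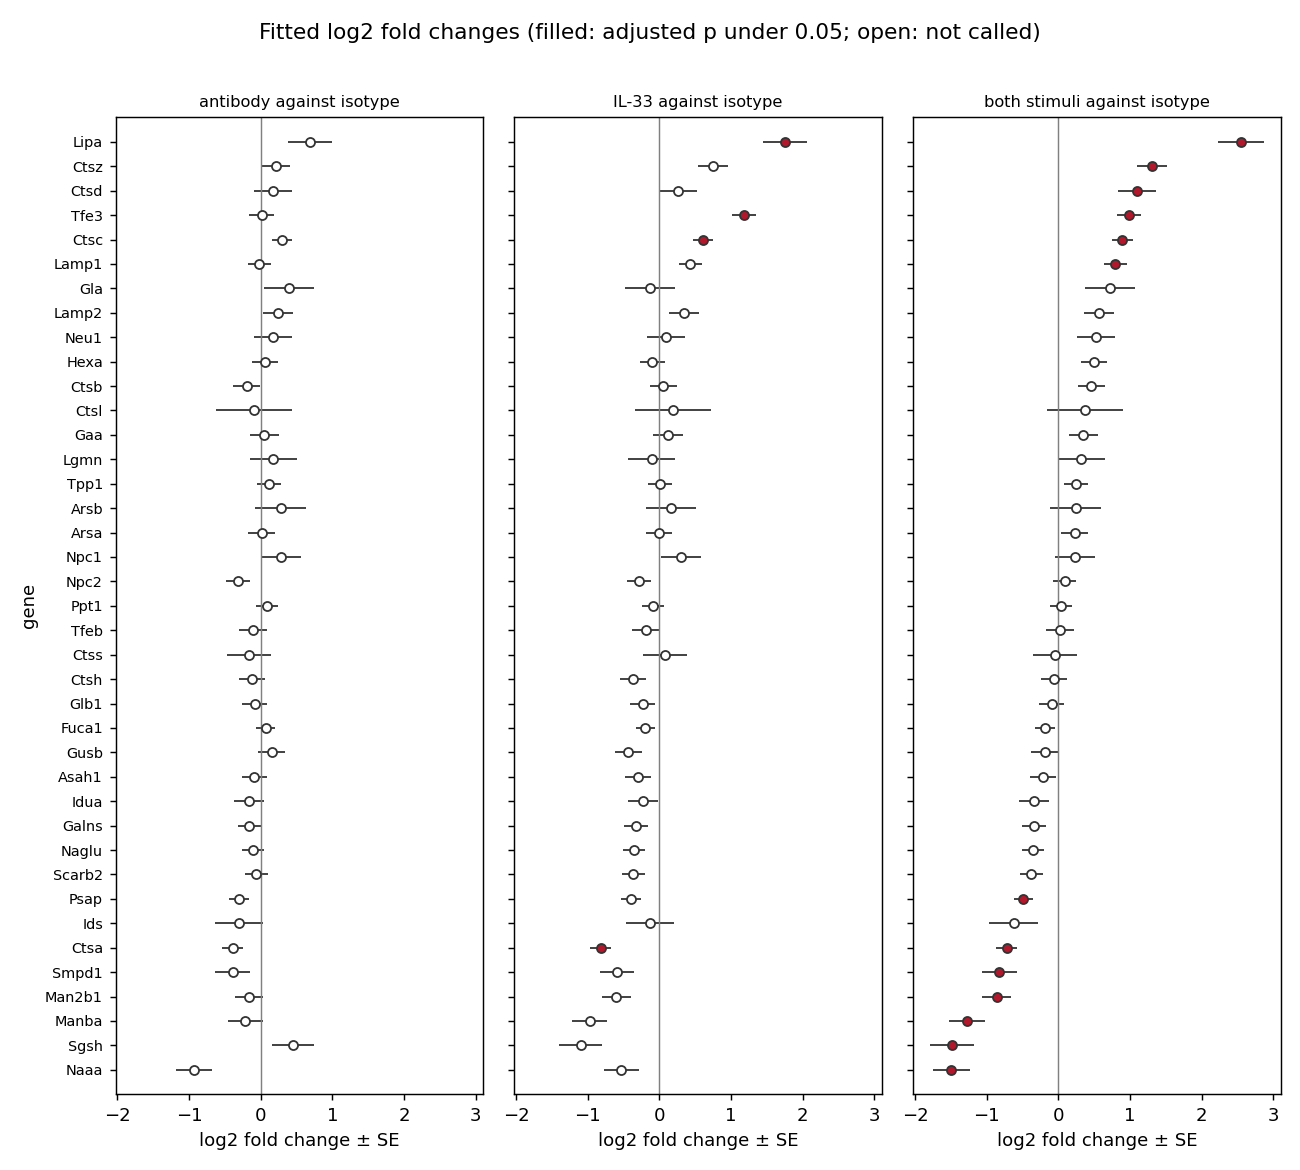
Fitted log2 fold changes (points, with bars of 1 SE) of the lysosomal genes for the antibody, IL-33 and both stimuli, each against isotype. Points are filled where edgeR's adjusted p was under 0.05. With both stimuli against isotype, 6 filled points lie above 0 and 7 below, from Lipa at 2.55 to Naaa at -1.49.

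Of the 2 transcription factors, Tfe3 was called and Tfeb was not. Tfe3 was at 33.9, 40.5 and 41.1 CPM in isotype libraries 1, 2 and 3, at 35.0, 41.6 and 39.8 with the antibody, at 84.1, 102 and 76.2 with IL-33 and at 90.4, 62.2 and 77.0 with both stimuli. All 6 libraries with IL-33 lay above all 6 without it. Tfe3 rose by a log2 fold change of 1.18 (SE 0.17) with IL-33 and of 0.99 (SE 0.17) with both stimuli against isotype (edgeR adjusted p = 0.00195 and 0.00301), and by 0.98 (SE 0.17) with both stimuli against the antibody (adjusted p = 0.00735). The last call was lost without antibody library 1 (adjusted p = 0.0551), and the first 2 were kept whichever library of their groups was left out. Tfeb was at 128, 161 and 133 CPM with isotype, 137, 116 and 137 with the antibody, 119.5, 116 and 135 with IL-33, and 102, 191 and 137 with both stimuli. The groups overlapped in every comparison, and Tfeb had log2 fold changes of -0.19, -0.11 and 0.03 against isotype for IL-33, the antibody and both stimuli. Of 19 genes in a list on the control of TFEB and TFE3, all of them tested, 4 rose and none fell with both stimuli against isotype, where 5.47% of all tested genes were called higher and 4.41% lower. They were Fnip2, a partner of folliculin, at 1.90 (SE 0.35), Mitf, a close relative of TFE3, at 1.50 (SE 0.44), Lamtor1, which anchors the Ragulator complex to the lysosome, at 0.74 (SE 0.21), and Ppp3r1, a calcineurin subunit, at 0.49 (SE 0.13). Mitf was a low gene, at 1.51 ± 0.444 CPM with isotype and 4.31 ± 2.73 with both stimuli (n = 3 each). With IL-33 alone only Fnip2 of this list rose, at 1.49 (SE 0.35, edgeR adjusted p = 0.0396), a call lost in 5 of 6 fits with 1 library left out (adjusted p up to 0.221). The 4 rises for both stimuli became 1, that of Fnip2, without isotype library 1, 2 or 3, and 2 without combined library 2 or without combined library 3. Without both of these, the log2 fold changes were 0.22 for Lamtor1, 0.47 for Ppp3r1, 2.37 for Fnip2 and 2.34 for Mitf.

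RefSeq start sites were available for 34 of the 39 genes in a table of windows from 250 bases before to 50 bases after each start (build GRCm38.p6). These windows were searched for CACGTG, the E-box core, and for the longer TCACGTGA, the core of the CLEAR element. Both read the same on either strand, so 1 search covers both strands, and the longer word always holds the E-box core. That core was present for 11 of the 34 genes (32.4%), against 2187 of 27025 genes with a window (8.09%) and 11.7% of the tested genes with one. The longer word was present for 3 of the 34 (8.82%; Ctsd, Ctsa and Gla), against 1.12% of all genes with a window and 2.21% of the tested genes with one. The E-box core was found for 2 of the 6 members that rose in at least 1 comparison (Ctsd and Lamp1), 2 of the 7 that fell (Ctsa and Sgsh) and 7 of the 21 never called. A match describes these letters only.

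The sequences below show members with the E-box core that went in opposite directions, Lamp1 and Ctsd up and Ctsa and Sgsh down, and strongly changed members without it there. Each is 5′ to 3′ on the gene's strand with CACGTG in capitals. For Lamp1 (chr8:13158911-13159160, plus strand), Lipa (chr19:34527475-34527724, minus strand), Man2b1 (chr8:85083019-85083268, plus strand) and Naaa (chr5:92278182-92278431, minus strand) they are the 250 bases before the RefSeq start. Lamp1 holds 4 cores, at 61, 45, 28 and 15 bases before the start, and the other 3 hold none in that stretch. For Ctsd (chr7:142387908-142387937, minus strand), Ctsa (chr2:164833749-164833772, plus strand) and Sgsh (chr11:119355522-119355551, minus strand) only a core and its neighbouring bases are given, 98, 12 and 29 bases before a RefSeq start. Ctsd holds another core 245 bases before the start, and Ctsa another at 5 bases after it. The other Ctsa window holds none. Of the 250 bases before these starts, 211 for Ctsd, 164 for Ctsa and 105 for Sgsh lie in annotated exons. The Ctsd core shown lies inside the annotated gene, and the one at 245 bases lies outside it. In Ctsd and Ctsa the bases beside the capitals complete TCACGTGA.
Lamp1: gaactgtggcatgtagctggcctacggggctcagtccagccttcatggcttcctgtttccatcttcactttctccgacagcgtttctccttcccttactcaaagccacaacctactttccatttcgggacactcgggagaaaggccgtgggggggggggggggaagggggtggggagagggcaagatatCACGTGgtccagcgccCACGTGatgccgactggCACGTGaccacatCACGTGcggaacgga
Ctsd: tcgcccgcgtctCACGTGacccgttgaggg
Ctsa: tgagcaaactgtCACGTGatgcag
Sgsh: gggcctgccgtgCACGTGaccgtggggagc
Lipa: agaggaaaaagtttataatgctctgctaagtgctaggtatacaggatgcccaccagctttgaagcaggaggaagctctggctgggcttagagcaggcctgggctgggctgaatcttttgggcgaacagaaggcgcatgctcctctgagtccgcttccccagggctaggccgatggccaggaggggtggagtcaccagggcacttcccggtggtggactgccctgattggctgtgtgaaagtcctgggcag
Man2b1: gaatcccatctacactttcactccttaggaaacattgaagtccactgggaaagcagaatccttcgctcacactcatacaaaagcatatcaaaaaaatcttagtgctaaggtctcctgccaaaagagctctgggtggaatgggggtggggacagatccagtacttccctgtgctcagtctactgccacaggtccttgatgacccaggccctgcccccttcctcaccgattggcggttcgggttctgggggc
Naaa: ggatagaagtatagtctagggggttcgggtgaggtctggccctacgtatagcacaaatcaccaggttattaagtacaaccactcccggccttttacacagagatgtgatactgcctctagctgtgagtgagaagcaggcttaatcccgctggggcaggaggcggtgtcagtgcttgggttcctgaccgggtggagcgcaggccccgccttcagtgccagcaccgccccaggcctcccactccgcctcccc

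Among the 10 proteases, 3 rose and 1 fell with both stimuli against isotype, and the median log2 fold change was 0.35. Of all tested genes, 5.47% were called higher and 4.41% lower in this comparison. Ctsz, a carboxypeptidase, was at 132, 163 and 131 CPM in the isotype libraries, 155, 162 and 174 with the antibody, 281, 260.0 and 174 with IL-33, and 316, 289 and 454 with both stimuli. Every library with both stimuli lay above every other library, and IL-33 library 3 lay within 1 CPM of antibody library 3. The fold change was 1.32 (SE 0.21) on the log2 scale (edgeR adjusted p = 0.00176), kept with each library left out, and 1.11 (SE 0.21) against the antibody (adjusted p = 0.0116, and 0.0660 and 0.0616 without antibody libraries 1 and 2). For IL-33 against isotype Ctsz was not called in the fit of all libraries. DESeq2 and limma voom called it there (adjusted p = 0.0109 and 0.000676), as did edgeR with no filter or without IL-33 library 3 (0.0172 and 0.0146). Ctsd, the major aspartic protease of lysosomes, was at 554, 609 and 628 CPM with isotype, 707, 552 and 760.2 with the antibody, 927, 829.9 and 392 with IL-33, and 1149, 1107 and 1577 with both stimuli. IL-33 library 3 was the lowest of all 12, and the combined libraries were the 3 highest. Ctsd rose by 1.10 (SE 0.27) with both stimuli against isotype (edgeR adjusted p = 0.0206), a call lost without any 1 of the isotype libraries (adjusted p = 0.0924, 0.0602 and 0.0705 for libraries 1, 2 and 3) or without combined library 3 (0.0735).

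Ctsc, dipeptidyl peptidase I, which activates granule proteases of leukocytes, was at 67.0, 72.3 and 54.2 CPM with isotype, 80.3, 81.7 and 74.9 with the antibody, 104, 99.9 and 90.3 with IL-33, and 121, 111 and 129 with both stimuli. The 4 groups did not overlap and lay in that order from low to high. The log2 fold change against isotype was 0.29 (SE 0.14) for the antibody, which was not called, 0.61 (SE 0.14) for IL-33 and 0.90 (SE 0.14) for both stimuli (edgeR adjusted p = 1, 0.0400 and 0.00170). The call for both stimuli held with each library left out, while that for IL-33 was lost in 5 of 6 such fits, all but the one without IL-33 library 3, with an adjusted p of up to 0.208. Against the antibody, both stimuli gave 0.61 (SE 0.14, edgeR adjusted p = 0.0302), lost in 4 of 6, without each antibody library and without combined library 3, with an adjusted p of up to 0.104. Ctsa, a carboxypeptidase that also stabilises the sialidase Neu1 and the beta-galactosidase Glb1, went the other way. It was at 124, 125 and 134 CPM with isotype, 100.1, 81.1 and 111 with the antibody, 73.7, 66.7 and 76.9 with IL-33, and 71.6, 74.6 and 86.9 with both stimuli. All 9 stimulated libraries lay below the 3 isotype libraries. Ctsa fell by 0.82 (SE 0.15) with IL-33 and by 0.72 (SE 0.15) with both stimuli on the log2 scale (edgeR adjusted p = 0.00911 and 0.00867). The first call was lost without isotype libraries 1 or 3 or IL-33 libraries 1 or 2 (adjusted p up to 0.0742), and the second without isotype library 3 (0.0550). Its partners Neu1 and Glb1 were not called, with log2 fold changes of 0.53 and -0.09 for both stimuli against isotype.

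The other 6 proteases were not called in any comparison by edgeR in the fit of all 12 libraries. For both stimuli against isotype their log2 fold changes were 0.46 for Ctsb, -0.06 for Ctsh, 0.37 for Ctsl, -0.04 for Ctss, 0.32 for the asparaginyl endopeptidase Lgmn and 0.25 for the tripeptidyl peptidase Tpp1. Their groups overlapped in that comparison. Ctsb, a cysteine protease, was at 69.7 to 85.3 CPM with isotype, 57.6 to 79.4 with the antibody and 81.7 to 127 with both stimuli, so that the combined libraries lay above the antibody libraries (log2 fold change 0.66, SE 0.19, edgeR adjusted p = 0.0650). Against the antibody edgeR called Ctsb with the replicate block, the stricter filter, no filter or without combined library 2 (adjusted p = 0.0291, 0.0397, 0.0438 and 0.0290), and DESeq2 did so as well (0.0174). Ctsh was at 659 to 721 CPM with isotype and 509 to 567 with IL-33, with no overlap (-0.37, SE 0.18, edgeR adjusted p = 0.418, and 0.0315 by limma voom). Without combined library 1, edgeR called Ctsh for both stimuli against IL-33 (0.50, adjusted p = 0.0362). Ctsl ranged from 2.09 to 10.5 CPM over all 12 libraries. Per kb it was the lowest of the 39 on average with isotype, while Sgsh was lower than Ctsl with IL-33 (0.814 against 0.968 CPM per kb) and with both stimuli (0.627 against 1.09). Among 8 cystatins, which inhibit cysteine cathepsins, 3 were tested, and Cstb rose by 2.21 (SE 0.36) with both stimuli against isotype (edgeR adjusted p = 0.00209), from 27.0 ± 3.23 to 125 ± 63.0 CPM (n = 3 each). Of all tested genes, 5.47% were called higher there. Cstb also rose by 1.90 against the antibody, a call lost in 2 of 6 fits with 1 library left out.

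**Figure D3:**
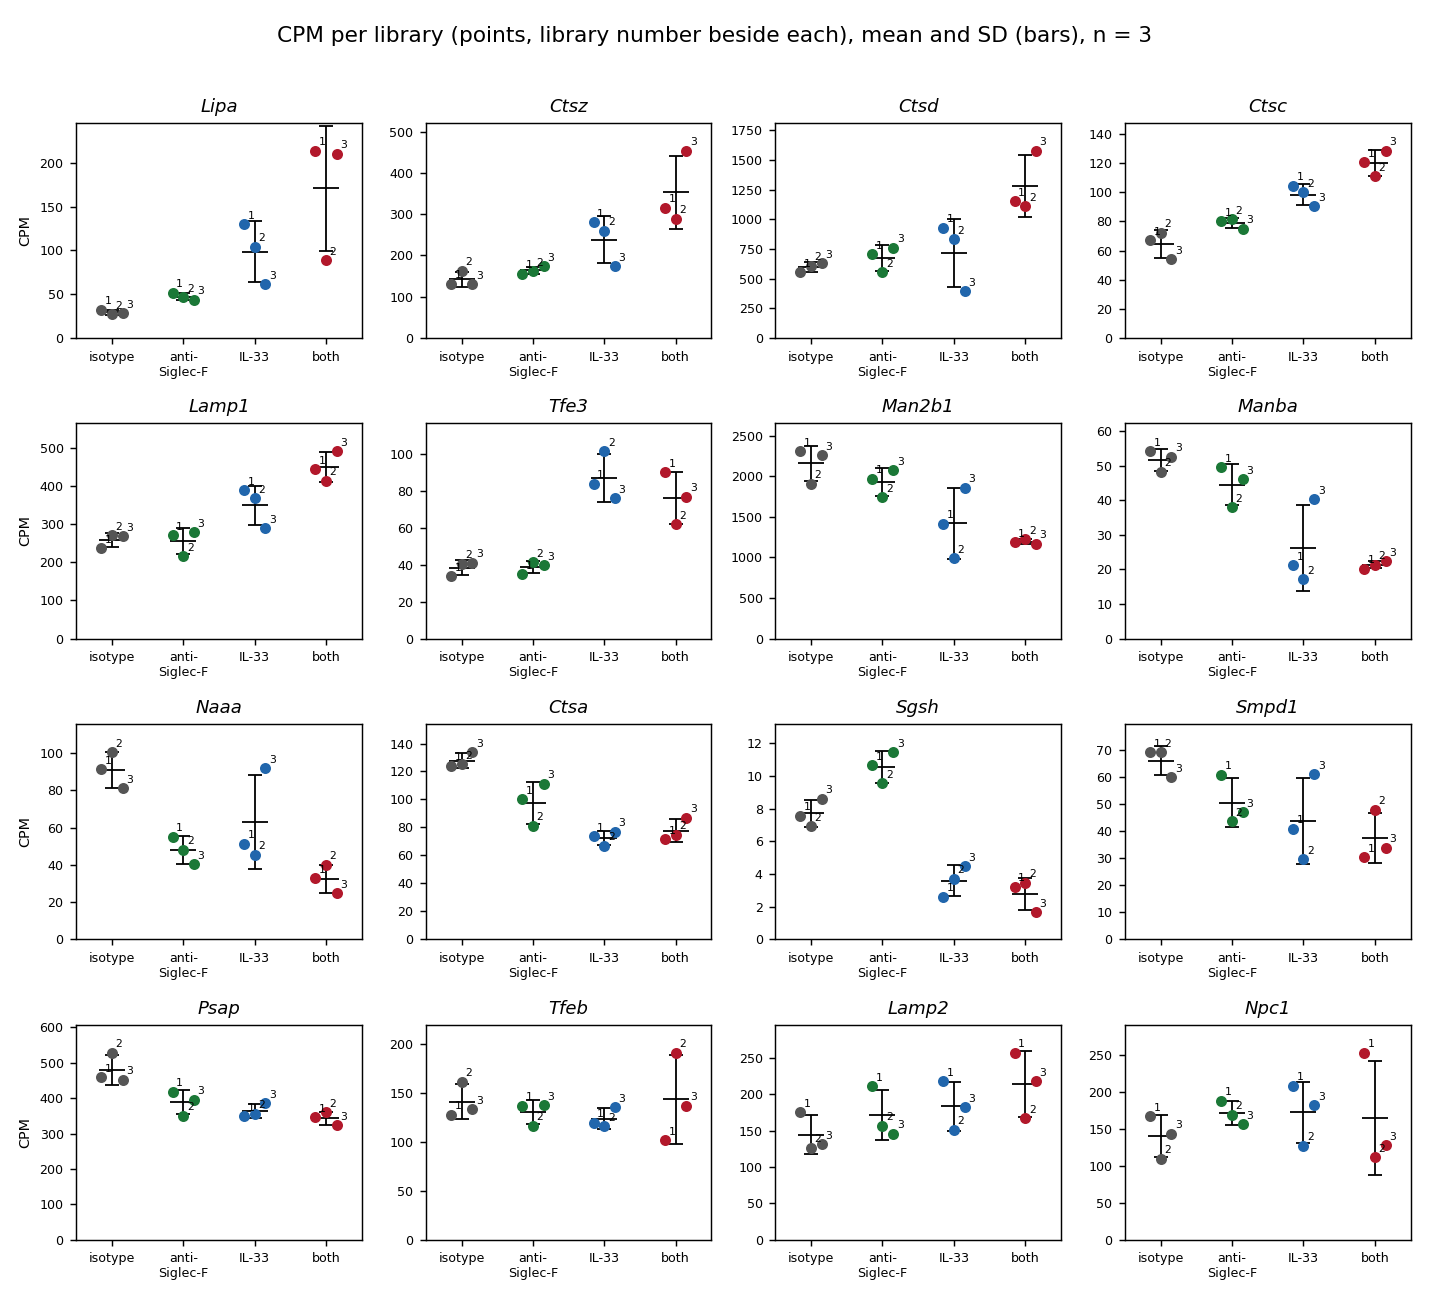
CPM of Tfeb, Tfe3, Lamp1, Lamp2, Npc1 and the called lysosomal genes in each library (points, numbered by library), with group means and SD (n = 3). Ctsc and Lipa have group means rising from isotype through the antibody and IL-33 to both stimuli, while IL-33 library 3 lies apart from IL-33 libraries 1 and 2 for Ctsd, Man2b1, Manba and Naaa.

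Among the 11 glycosidases, none rose and 2 fell with both stimuli against isotype, where 5.47% of all tested genes were called higher and 4.41% lower. The median log2 fold change of the glycosidases was -0.19. The 2 were the mannosidases that end the lysosomal breakdown of N-glycans. Man2b1 was at 2310.0, 1913 and 2264 CPM with isotype, 1970.0, 1746 and 2076 with the antibody, 1416, 990.3 and 1862 with IL-33, and 1190.2, 1226 and 1168 with both stimuli. Manba, the beta-mannosidase, was at 54.1, 48.2 and 52.5, at 49.6, 37.9 and 46.1, at 21.2, 17.2 and 40.4, and at 20.2, 21.3 and 22.3 CPM in the same order of groups. For both genes the combined libraries were closely spaced and below every isotype and antibody library, and IL-33 library 3 lay nearer to the isotype libraries than IL-33 libraries 1 and 2 did. Man2b1 fell by 0.86 (SE 0.20) on the log2 scale with both stimuli against isotype (edgeR adjusted p = 0.0182), a call lost without isotype libraries 1 or 3 or combined library 3 (adjusted p = 0.0863, 0.0844 and 0.0514) and without combined libraries 2 and 3 together (0.184). Manba fell by 1.28 (SE 0.25, edgeR adjusted p = 0.00679), a call kept with each single library left out and lost without combined libraries 2 and 3 together (0.0814). Against the antibody, Manba fell by 1.07 (SE 0.25, edgeR adjusted p = 0.0312), which was lost in 5 of 6 fits with 1 library left out, all but the one without combined library 1 (adjusted p up to 0.124). With IL-33 alone the log2 fold changes were -0.60 (SE 0.20) for Man2b1 and -0.97 (SE 0.25) for Manba, not called in the fit of all 12 libraries (edgeR adjusted p = 0.166 and 0.0634). Without IL-33 library 3 edgeR called both, at -0.81 and -1.39 (adjusted p = 0.0419 and 0.000781). Manba was also called by DESeq2 (-0.96, adjusted p = 0.00876), by edgeR with no filter or the stricter filter (adjusted p = 0.000568 and 0.0440) and, with Man2b1, by limma voom (adjusted p = 0.000395 and 0.00357).

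The other 9 glycosidases were not called by edgeR in the fit of all 12 libraries. With both stimuli against isotype, Hexa, the alpha chain of beta-hexosaminidase, and the sialidase Neu1 were higher in every combined library than in every isotype library, at log2 fold changes of 0.50 and 0.53 (edgeR adjusted p = 0.0899 and 0.226). DESeq2 called Hexa there (adjusted p = 0.0366), as did edgeR without combined library 1 (0.60, adjusted p = 0.0325), where Hexa was called against the antibody and against IL-33 too. Idua, Naglu and Fuca1, which act on glycosaminoglycans and fucosylated glycans, were lower in every combined library, at -0.33, -0.35 and -0.19 (edgeR adjusted p = 0.336, 0.164 and 0.415). Gaa, the acid alpha-glucosidase of glycogen, was at 0.35, Gla at 0.72, Glb1 at -0.09 and Gusb at -0.19, and their groups overlapped. Gla shows the spread of the combined group: 2 of its libraries were at 35.8 and 36.9 CPM and library 2 was at 13.9, below all isotype libraries, which lay between 15.8 and 19.1. Without combined library 2 edgeR called Gla (1.05, adjusted p = 0.0410), and with no filter on low counts it called Gla with all libraries (0.70, adjusted p = 0.0468).

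Among the 5 sulfatases, 1 fell with both stimuli against isotype, where 4.41% of all tested genes were called lower. Sgsh, which removes N-linked sulfate from heparan sulfate, was at 7.57, 6.94 and 8.62 CPM with isotype, 10.7, 9.56 and 11.5 with the antibody, 2.61, 3.70 and 4.47 with IL-33, and 3.21, 3.45 and 1.63 with both stimuli. The antibody libraries were the 3 highest, and all 6 libraries with IL-33 were below all 6 without it. Sgsh fell by 1.48 (SE 0.31) on the log2 scale with both stimuli against isotype (edgeR adjusted p = 0.00946, and 0.0519 without isotype library 3) and by 1.94 (SE 0.31) against the antibody (adjusted p = 0.00445, kept with each library left out). For IL-33 against isotype it was -1.10 (SE 0.30) and for the antibody against isotype 0.45 (SE 0.29), both not called (edgeR adjusted p = 0.0806 and 1). DESeq2 and limma voom did call Sgsh for IL-33 against isotype (adjusted p = 0.0216 and 0.00123). Ids and Galns, which act on dermatan or heparan sulfate and on keratan sulfate, were lower in every combined library than in every isotype library, at -0.62 and -0.33, without a call. Arsa and Arsb were at 0.23 and 0.24 with overlapping libraries. Arsb was higher in library 1 than in libraries 2 and 3 in each of the 4 groups, at 42.1 to 47.9 CPM against 18.3 to 32.8.

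The 6 lipid hydrolases and activators held both the largest rise and the largest fall among the 39 for both stimuli against isotype. Lipa, lysosomal acid lipase, which releases cholesterol and fatty acids from lipoprotein lipids, was at 32.2, 27.2 and 28.1 CPM with isotype, 51.6, 46.3 and 43.7 with the antibody, 130.2, 104 and 61.2 with IL-33, and 214, 88.7 and 211 with both stimuli. All antibody libraries lay above all isotype libraries, and all IL-33 and combined libraries lay above both groups. The log2 fold change against isotype was 0.69 (SE 0.31), 1.75 (SE 0.31) and 2.55 (SE 0.32) for the antibody, IL-33 and both stimuli (edgeR adjusted p = 1, 0.00859 and 0.000429). The call for both stimuli was kept with each library left out, as was the one against the antibody (1.86, SE 0.31, edgeR adjusted p = 0.00590). The call for IL-33 was lost without isotype libraries 2 or 3 or IL-33 library 1 (adjusted p = 0.0530, 0.0527 and 0.0533).

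Naaa was at 91.3, 101 and 81.2 CPM with isotype, 55.1, 48.0 and 40.2 with the antibody, 51.5, 45.4 and 92.1 with IL-33, and 32.7, 40.0 and 24.7 with both stimuli. The antibody and combined libraries were all below the isotype libraries, while IL-33 library 3 was within the isotype range and IL-33 libraries 1 and 2 were below it. Naaa fell by 1.49 (SE 0.26) on the log2 scale with both stimuli (edgeR adjusted p = 0.00294), a call kept with each library left out. With IL-33 it was at -0.53 (SE 0.25, edgeR adjusted p = 0.370). Smpd1, acid sphingomyelinase, was at 69.5, 69.3 and 60.1 CPM with isotype, 60.9, 43.7 and 47.1 with the antibody, 41.0, 29.7 and 61.1 with IL-33, and 30.5, 48.0 and 33.9 with both stimuli. Psap was at 459.8, 528 and 451, at 418, 351 and 395, at 349.5, 356 and 386, and at 345, 359 and 324 CPM in the same order. Both genes were lower in each combined library than in each isotype library, and Psap was so in all 9 stimulated libraries. They fell by 0.82 (SE 0.25) and 0.48 (SE 0.14) with both stimuli, close to the threshold (edgeR adjusted p = 0.0486 and 0.0413), and each call was lost in 5 of 6 fits with 1 library left out. Smpd1 kept its call only without combined library 2 and Psap only without combined library 1, with adjusted p of up to 0.158 and 0.154 in the others. Asah1, acid ceramidase, and Ppt1, which removes palmitate from proteins, were at -0.22 and 0.03 with overlapping libraries.

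The 2 cholesterol exporters were not called in any comparison by edgeR in the fit of all 12 libraries. Without combined library 1 it called Npc2 for both stimuli against the antibody (0.52, edgeR adjusted p = 0.0375). Npc1, the membrane transporter, was at 168, 110.0 and 144 CPM with isotype, 188, 169.5 and 156 with the antibody, 209, 127 and 182 with IL-33, and 253, 112 and 128 with both stimuli. The groups overlapped in each comparison against isotype, with log2 fold changes of 0.29, 0.30 and 0.23 for the antibody, IL-33 and both stimuli. Npc2, the soluble protein that hands cholesterol to Npc1, was at 118 to 135 CPM with isotype, 87.0 to 115 with the antibody, 101 to 108 with IL-33 and 110.5 to 169 with both stimuli.

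Among the 3 membrane proteins, Lamp1 rose. Lamp1, a main glycoprotein of the lysosomal membrane, was at 237, 270.5 and 268 CPM with isotype, 271, 216 and 279 with the antibody, 389, 368 and 289.9 with IL-33, and 444, 414 and 491 with both stimuli. The combined libraries were the 3 highest, and the IL-33 libraries lay between them and the other 2 groups. Lamp1 rose by 0.80 (SE 0.16) with both stimuli against isotype and by 0.82 (SE 0.16) against the antibody (edgeR adjusted p = 0.00808 and 0.0150). The first call was lost without isotype library 1 (adjusted p = 0.0507), and the second without antibody libraries 1 or 2 or combined library 3 (up to 0.0839). With IL-33 alone the value was 0.43 (SE 0.16, edgeR adjusted p = 0.217). Lamp2, its relative with a part in autophagy, was at 175, 127 and 132 CPM with isotype, 211, 157 and 146 with the antibody, 218, 151 and 182 with IL-33, and 257, 167 and 218 with both stimuli. Library 1 was the highest in each of the 4 groups. In the fit of all 12 libraries Lamp2 was not called, at 0.57 (SE 0.21) with both stimuli against isotype (edgeR adjusted p = 0.104). With the replicate number as a block it was called, at 0.56 (SE 0.14, edgeR adjusted p = 0.0252), and by DESeq2 as well (0.60, adjusted p = 0.0477), though the isotype and combined numbers did not meet the rule for pairing. Scarb2, the carrier of glucocerebrosidase, was lower in every IL-33 and combined library than in every isotype library, at log2 fold changes of -0.36 and -0.38, without a call by edgeR (adjusted p = 0.329 and 0.153), while limma voom called it with IL-33 (adjusted p = 0.0240).

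**Figure D4:**
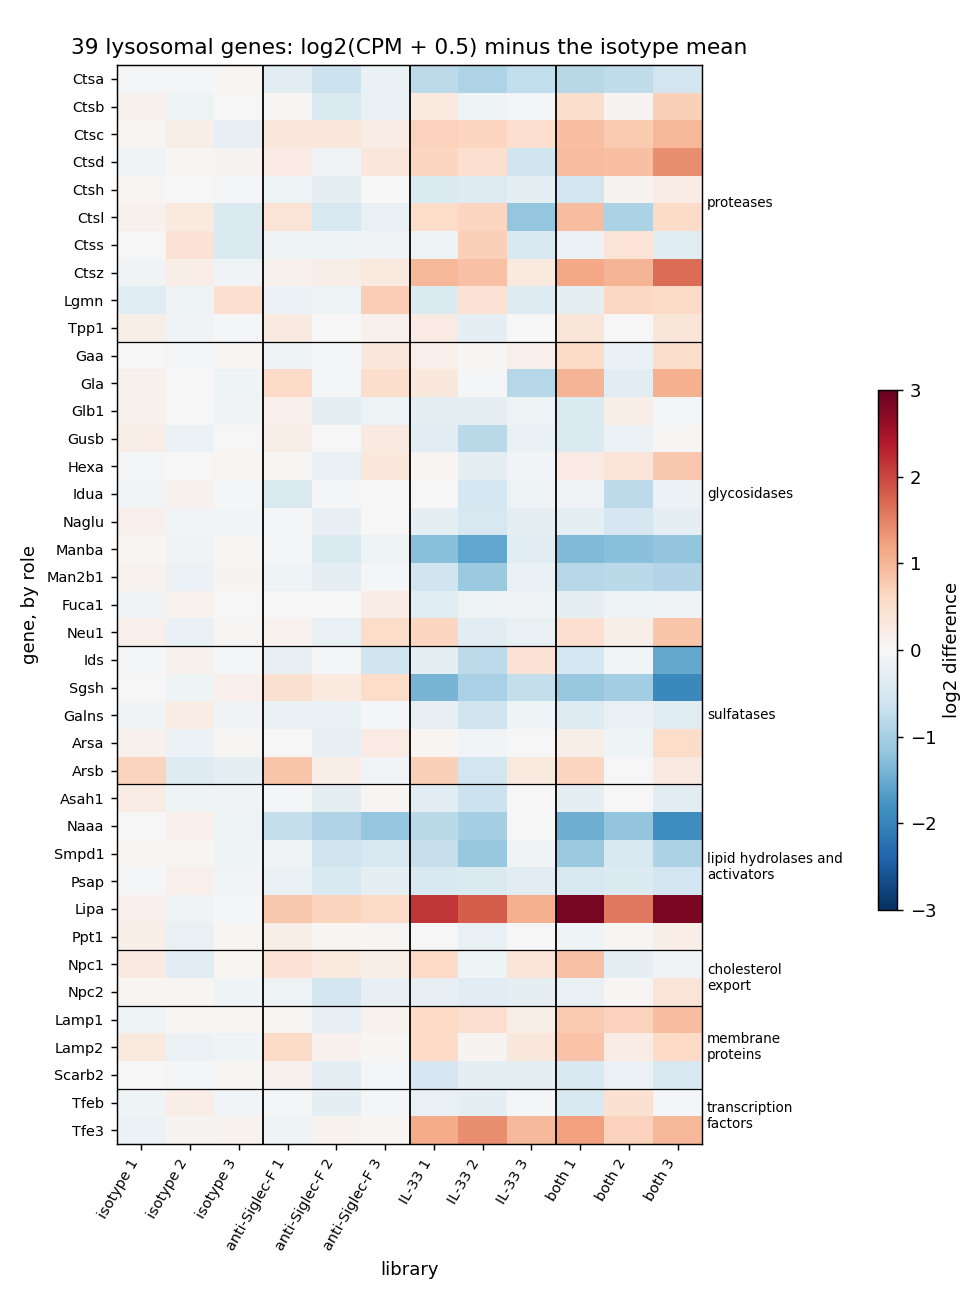
Differences of log2(CPM + 0.5) from the isotype mean for the 39 lysosomal genes, by role, in each of the 12 libraries. Lipa and Tfe3 are above the isotype mean in all 6 libraries with IL-33, and Ctsa and Sgsh are below it in these.

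With both stimuli Man2b1, and through it the glycosidases together, held a smaller share of the lysosomal genes' counts than with isotype. Proteases held a larger share. Together the 39 genes took 0.642% to 0.686% of all counts with isotype, 0.577% to 0.646% with the antibody, 0.537% to 0.594% with IL-33 and 0.583% to 0.628% with both stimuli. Man2b1 alone made up 31.1% to 35.5% of the 39 genes' counts with isotype, 31.3% to 32.2% with the antibody, 19.3% to 32.6% with IL-33 and 15.9% to 19.7% with both stimuli. All 11 glycosidases together made up 39.9% to 44.4% with isotype and 26.2% to 28.7% with both stimuli. The 10 proteases made up 27.7% to 30.4%, 30.2% to 31.7%, 26.1% to 39.3% and 37.8% to 45.7% in the same order. Isotype and combined libraries did not overlap for any of these 3 shares, and IL-33 library 3, with the 32.6% for Man2b1 and the 26.1% for proteases, lay apart from IL-33 libraries 1 and 2. The share of the glycosidases other than Man2b1 overlapped between isotype and combined libraries, so theirs did not show this fall. Without Man2b1, the other 38 genes took 0.437% to 0.444% of all counts with isotype and 0.468% to 0.528% with both stimuli. These shares weight each gene by its counts and so rest mostly on Man2b1, Ctsd, Ctsh and Psap.

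**Figure D5:**
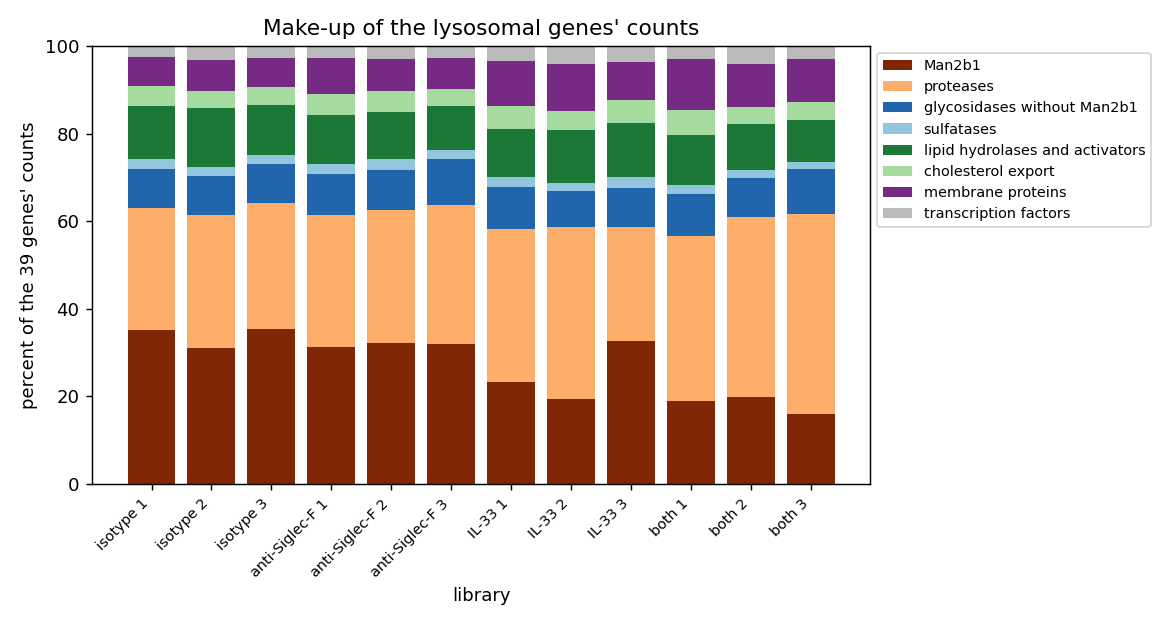
Percent of the 39 lysosomal genes' counts taken by Man2b1, the other glycosidases and the other roles in each of the 12 libraries. Man2b1 takes 31.1% to 35.5% in the isotype libraries and 15.9% to 19.7% in the combined libraries.

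Related lysosomal genes outside the 39 were described from 7 lists. The proton pump, the V-type ATPase that acidifies lysosomes, had 6 of 17 tested genes rise and none fall with both stimuli against isotype, with a median log2 fold change of 0.60, against 5.47% of all genes called higher and a median of -0.05. Its leading members were Atp6v1h at 1.20 (SE 0.19), Atp6v1e1 at 0.98 (SE 0.22), Atp6v0c at 0.83 (SE 0.23) and Atp6v1g1 at 0.79 (SE 0.22), with edgeR adjusted p = 0.00166, 0.0146, 0.0401 and 0.0380. Atp6v1h averaged 34.2 ± 5.29 CPM with isotype and 78.3 ± 14.2 with both stimuli (n = 3 each). The count of 6 became 1, 2 and 1 without isotype libraries 1, 2 and 3 and 1 without combined library 3. Atp6v1h kept its call in each of the 6 fits with 1 library left out. Without combined libraries 2 and 3 together, log2 fold changes were 1.09 for Atp6v1h, 0.91 for Atp6v1e1, 1.04 for Atp6v0c and 0.32 for Atp6v1g1. None of the 17 was called with IL-33 or the antibody alone. Of 26 other hydrolases tested, 3 rose with both stimuli and none fell, Ggh, which trims folate polyglutamates, at 1.87 (SE 0.25), the acid DNase Dnase2a at 1.23 (SE 0.32) and the acid phosphatase Acp2 at 0.74 (SE 0.20). Ggh kept its call with each single library left out, while Dnase2a lost it in 4 and Acp2 in 5 of 6 such fits. Without combined libraries 2 and 3 together, the log2 fold changes were 1.60 for Ggh, 0.62 for Dnase2a and 1.00 for Acp2. Without isotype library 1, isotype library 3 or combined library 3 the 3 rises became 1, and without isotype library 2 they became 2. Ggh and Acp2 also rose with IL-33 alone, at 1.26 and 0.91, each call lost in 5 of 6 fits with 1 library left out. Against the antibody, both stimuli raised Atp6v1h by 0.99 and Ggh by 1.65. With 1 library left out there, Ggh kept its call in each fit and Atp6v1h lost it in 2 of 6.

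Of 21 other lysosomal membrane proteins, 3 rose and 3 fell with both stimuli against isotype. Of all tested genes, 9.88% were called in this comparison, 5.47% higher and 4.41% lower, which is the background for this list and for those on sorting and autophagy. Slc11a1, a metal transporter of phagosomes, rose most, at 2.74 (SE 0.38, edgeR adjusted p = 0.000776), from 108 ± 15.8 to 720.4 ± 229 CPM (n = 3 each), and rose with IL-33 alone at 1.91 (SE 0.37). Cd63, a tetraspanin of eosinophil granules and lysosomes, rose by 1.01 (SE 0.29). The sialic acid exporter Slc17a5 and the amino acid sensor Slc38a9 fell by 0.89 (SE 0.27) and 0.81 (SE 0.17). Of 10 genes for sorting to the lysosome, M6pr, the cation-dependent mannose 6-phosphate receptor, rose by 1.00 (SE 0.14) and Sort1, sortilin, fell by 1.22 (SE 0.29), with edgeR adjusted p = 0.00102 and 0.0168. Of 20 autophagy genes, 3 rose and 3 fell. Sqstm1, the cargo receptor p62, rose by 1.98 (SE 0.37) and the receptor Optn by 1.83 (SE 0.43), while the initiating kinase Ulk1 fell by 1.21 (SE 0.23) and the phosphoinositide-binding protein Wipi1 by 0.89 (SE 0.18). So the list on autophagy, like the lysosomal genes, held calls in both directions. Slc11a1, M6pr, Sqstm1 and Ulk1 kept their calls for both stimuli with each single library left out. Of the others, Slc17a5 lost its call in 5 of 6 such fits, Cd63, Sort1 and Optn in 4, Slc38a9 without isotype library 3 and Wipi1 without isotype library 1. Without combined libraries 2 and 3 together, log2 fold changes were 2.86 for Slc11a1, 1.00 for M6pr, 2.35 for Sqstm1 and -0.64 for Ulk1. Cd63, Sort1 and Optn were at 0.57, -0.82 and 2.14 there, and Slc17a5, Slc38a9 and Wipi1 at -0.45, -0.76 and -0.60. The 6 calls among membrane proteins became 2, 2 and 1 without isotype libraries 1, 2 and 3, 3 and 2 without combined libraries 2 and 3, and 1 without both of these. The 2 among sorting genes became 1 without isotype libraries 1 or 3 or combined libraries 2 or 3. The 6 among autophagy genes became 2 and 3 without isotype libraries 1 and 3, 4 without isotype library 2 or combined library 3, and 2 without combined libraries 2 and 3 together. With IL-33 alone M6pr and Sqstm1 also rose, by 0.68 and 1.52, and Map1lc3b of the autophagy list fell by 0.65. These calls were lost in 5, 5 and 6 of 6 fits, and that of Slc11a1 in 5. Against the antibody, both stimuli raised Slc11a1, M6pr, Sqstm1 and Optn by 1.35, 0.72, 1.71 and 1.62. Slc17a5, Atp13a2, Sort1, Ulk1 and Wipi1 fell there by 1.01, 0.69, 1.10, 0.91 and 0.75. Each call against the antibody was lost in 3 to 5 of 6 such fits. Of all tested genes, 2.21% were called with IL-33 and 4.42% against the antibody.

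Reads of overlapping genes limit some of these values, since the strand setting of the counting is not given in the sources used here. By the positions in the table, 19 of the 39 genes overlap another gene. Among the called genes only Ctsz overlaps one of appreciable level, Nelfcd on the opposite strand, at a mean of 43.6 CPM over all libraries against 224 for Ctsz, and the partners of the others were at most at 3.25 CPM. Ppt1 overlaps Cap1, at 1852 CPM against 34.5, and Npc1 overlaps Rmc1, at 93.7 CPM against 162. Idua overlaps Dgkq, at 15.8 CPM against 22.9, and Ctsb overlaps Fdft1, at 29.3 CPM against 83.5. These partners are on the opposite strand. Glb1 overlaps Tmppe on the same strand, at 24.1 CPM against 30.0, where the strand setting makes no difference.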

How the data were processed

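RNA-seq was done on 12 libraries of cultured mouse splenic eosinophils, 3 in each of 4 groups taken from the sample titles. The deposited table holds the authors' raw counts per gene. The submitters' processing notes name fastp, FastQC 0.11.8, STAR 2.6.1d, featureCounts 1.5.0-p3, DESeq2 and the mm10 build. For the annotation release and the strand setting, no value is given in the sources used here. The deposited normalized table equals these counts divided by 1 constant per library and was not used. Library totals were 11686603 to 17137988 counts. Their size and the number of libraries limit the precision of each value.

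Counts were tested with edgeR 4.0.16 in R 4.3.3, with limma 3.58.1 and DESeq2 1.42.0 for alternatives. Genes were kept by filterByExpr by group (14547 genes), scaled by TMM and tested by the quasi-likelihood F test in 1 fit of all 12 libraries with group as the only term. P-values were adjusted by Benjamini-Hochberg over all genes tested, and a gene was called at an adjusted p under 0.05. There were 6 comparisons: IL-33, the antibody and both stimuli against isotype, both stimuli against each single stimulus, and the interaction. CPM used TMM library sizes, and CPM per kb used the gene lengths in the table. The lysosomal genes and the other lists (7 role groups, 7 pathway lists and 8 marker lists) were chosen with earlier results of these data known, so no list was tested as a set. Any lysosomal gene could be named, and values in every library were given for Tfeb, Tfe3, Lamp1, Lamp2, Npc1 and each member called at least once. Of each pathway list, up to 4 called genes with the largest absolute log2 fold change per comparison were named. Il6 was named as a check of the treatment. Batf3, Cd200r3, Csf1r and Vcam1 were named after their values were seen.

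Same-numbered isotype and IL-33 libraries deviated together from their group means, with correlations across genes of 0.27, 0.29 and 0.19, all over the threshold of 0.1, and these numbers were taken to pair the libraries. In every other pair of groups at least 1 correlation was under 0.1. For some marker genes, such as Epx and Ngp, isotype and antibody libraries with the same numbers nevertheless lay in the same order. The fit of all 12 libraries has no block for this. Alternatives were RLE size factors, DESeq2, limma voom with quality weights, no filter or a stricter one (5 CPM in 3 libraries), the replicate number as a block, only the groups compared in the fit, both of these together, leaving out combined libraries 2 and 3, and leaving out each library. Repeating them for the pathway and marker genes was chosen after the data were seen. Leaving out combined libraries 2 and 3 left 1 library in that group, so a lost call there cannot tell their part from lost precision. Promoter windows came from RefSeq (GRCm38.p6). The testing scripts were tested on simulated data.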

Additional observations from a re-analysis of the deposited data

Results flagged for a closer look

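For Npc2 the antibody libraries lay below the isotype libraries, while the combined libraries lay above the IL-33 libraries. The gaps between groups were narrow, 115 against 118 and 110.5 against 108 CPM at the edges. Without IL-33 the antibody libraries 1, 2 and 3 were at 115, 87.0 and 108 CPM, all below the isotype libraries at 134, 135 and 118 CPM, a log2 fold change of -0.32 (SE 0.17). With IL-33 the combined libraries were at 110.5, 131 and 169 CPM, all above the IL-33 libraries at 108, 101 and 107 CPM, a log2 fold change of 0.38 (SE 0.17). The difference between these effects was 0.69 on the log2 scale (SE 0.24), with an unadjusted p of 0.0110 and an edgeR adjusted p = 0.583, so it did not pass the threshold over all genes tested. The highest of the combined libraries, at 169 CPM, was library 3, which stood apart from the other libraries in its number of detected genes.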

How the results depend on the processing

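The direction of all 24 calls among the lysosomal genes held under every alternative run, and 78 of 360 values lost their call. Of the 24, 9 were kept whichever single library was left out. Some calls were lost without combined libraries 2 and 3, where 1 combined library was left. The 4 calls for IL-33 against isotype do not involve that group. DESeq2 and the stricter filter lost none of the 24 calls. Counts of lysosomal genes called for IL-33 against isotype went from 4 to 7 with DESeq2, 14 with limma voom and 8 with only these groups and the replicate block, and from 1 to 8 with a library left out. For the antibody, 0 became 1 with no filter, with only the groups compared, or with the block as well, and 0 with any library left out. For both stimuli against isotype, 13 became 6 without combined libraries 2 and 3, and 7 to 13 with a library left out. Against IL-33, 0 became 3 with DESeq2, 4 with no filter and 0 to 3 with a library left out. Against the antibody, 7 became 3 without combined libraries 2 and 3, and 2 to 10 with a library left out. For the interaction it was 0 throughout.

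All genes called for IL-33 went from 322 to 731 with DESeq2, 2089 with voom, 683 with no filter, 1235 with only these groups and the replicate block, 688 without combined libraries 2 and 3, and 116 to 488 with a library left out. For the antibody, 0 became 10 with DESeq2, 10 with voom, 70 with no filter, 20 with only these groups, 50 with the block as well, 1 without combined libraries 2 and 3, and 0 with any library left out. For both stimuli against isotype, 1437 became 2197, 738 and 916 with DESeq2, only these groups and the block as well, 651 without combined libraries 2 and 3, and 515 to 2916 with a library left out. DESeq2 split its calls into 1336 higher and 861 lower, against 796 and 641. Against IL-33, 0 became 388 with DESeq2, 786 with no filter, and 0 to 2116 with a library left out. Against the antibody, 643 became 1447 with DESeq2, 424 with voom, 1600 with no filter, 242 with only these groups, 350 with the block as well, 220 without combined libraries 2 and 3, and 124 to 2839 with a library left out. For the interaction, 0 became 1 with DESeq2, 86 with no filter, and 0 to 4 with a library left out.

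With the replicate block in the fit of all 12 libraries, lysosomal genes called were 5, 0, 12, 0, 8 and 0 for IL-33, the antibody and both stimuli against isotype, both stimuli against IL-33 and against the antibody, and the interaction. Over all genes they were 364, 0, 1459, 0, 642 and 0. Only the isotype and IL-33 numbers were taken as paired. The cause of these shifts was not tested. Of 54 calls among pathway and marker genes, 12 were kept with each single library left out, and for both stimuli against isotype 98 of 210 values lost their call and none changed sign. Depth limits low genes such as Ctsl and Sgsh.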
